A study of Mus musculus with 17 samples.

Results

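The Xcr1 Clec9a dendritic cells were the cells of mouse back skin that carried UMIs of Xcr1, a chemokine receptor, or of Clec9a, a receptor for dead cells, together with high MHC class II and almost no complement C1q. A cell was a member when it had at least 200 genes detected, at most 20% of its UMIs from mitochondrial genes, at least 2 UMIs of Xcr1 and Clec9a together, at least 5 UMIs of H2-Ab1 and at most 1 UMI of C1qa, C1qb and C1qc together. A UMI (unique molecular identifier) marks 1 captured RNA molecule. This rule chose 665 of the 30085 cells that passed the 2 quality limits in 8 skin libraries. The membership therefore rests on Xcr1, Clec9a, H2-Ab1 and the C1q genes, and their levels are given only as a description.

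The libraries were made by droplet RNA sequencing of GFP+ cells sorted from the skin of mice labelled as 8 weeks old. In every group PDGFRb-Cre switched on the Z/EG GFP reporter. SARATg mice also carried a transgene for SARA (the human ZFYVE9 gene, a scaffold protein first described in TGF-beta signaling) that the same Cre activates, and SARAWT littermates, labelled wildtype, did not. Mice received bleomycin, a drug that causes skin fibrosis, at 20 mg/kg under the skin 3 times per week for 2 weeks, or PBS by the same route, as the labels give it, while the study's methods describe daily injections. Those methods give 8 weeks as the age at which mice entered experiments. They place the harvest of skin 1 week after bleomycin ended. The groups were SARAWT PBS and SARAWT bleomycin with 3 libraries each and SARATg PBS and SARATg bleomycin with 1 library each, and the labels do not say how many mice a library holds. The sort was aimed at PDGFRb+ cells, and the study describes the promoter as presumably active in leukocyte progenitors as well. In the members, Pdgfrb lay between 0 and 2.50 CPM (UMIs of a gene per 1000000 UMIs of the cells summed) and Ptprc, the leukocyte protein CD45, between 356 and 500.4 CPM, so their own transcripts carried CD45 and almost no Pdgfrb.

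Conventional dendritic cells of type 1 (cDC1) take up dying cells and present their antigens on MHC class I to CD8 T cells, a process called cross-presentation. They depend on the growth factor receptor Flt3 and on the transcription factors Irf8, Batf3 and Id2, and in skin and other barrier tissues they carry the integrin CD103 (Itgae). Type 2 dendritic cells (cDC2) instead use Irf4 and Klf4, carry Sirpa, and mainly serve CD4 T cells. Either type can mature, when it turns on Ccr7, the receptor that guides it to the lymph node, and Fscn1, a protein that bundles actin.

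The library labelled SARAWT PBS 1 held 67 members, SARAWT PBS 2 held 6 and the library labelled SARAWT PBS 3 held 116. The SARAWT bleomycin libraries held 83, 64 and 110, SARATg PBS held 139 and SARATg bleomycin held 80. SARAWT PBS 2 was the smallest library by far, with 781 quality cells where the median library had 4316, and its 6 members fell under the minimum of 10 cells set for tests on genes. The members were deep cells: their median was 13410.5 to 22399.5 UMIs per library, against 1271 to 11292.5 for all quality cells. A rule that asks for UMIs of low genes favors deep cells, and the shares below count only those that were deep enough to pass it.

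Several features of the libraries touch the results. Members that share their barcode with any cell of another skin library numbered 52 in all, among them all 6 of SARAWT PBS 2, 20 and 22 of SARAWT bleomycin 1 and 2, and none of the libraries labelled SARAWT PBS 3 and SARAWT bleomycin 3. Of all members, 17 were scored as doublets and kept. A single barcode was a member in 2 libraries, SARAWT PBS 2 and SARAWT bleomycin 2, which leaves 664 distinct barcodes. SARAWT PBS 1 and 2 and SARAWT bleomycin 1 and 2 were counted against a longer gene list than the other libraries, and genes on only 1 of the lists were left out of tests. The longer list alone has an entry for human ZFYVE9.

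The targeted gene went against some labels. Human ZFYVE9 lay at 457 CPM in the members of the library labelled SARAWT PBS 1, at 170 CPM in SARAWT PBS 2 and at 85.1 and 96.1 CPM in SARAWT bleomycin 1 and 2, although none of these is labelled as carrying the transgene. Mouse Zfyve9 lay at 387 CPM in the members of the library labelled SARAWT PBS 3 and at 245 and 145 CPM in SARATg PBS and SARATg bleomycin, against 1.28 CPM in SARAWT bleomycin 3, which was counted with the same list. The library labelled SARAWT PBS 3 thus lay above both SARATg libraries. The library labelled SARAWT PBS 1 lay at 12.2 CPM of mouse Zfyve9, below them, and its human ZFYVE9 was the highest of the 4 libraries with that entry but cannot be set against SARATg, which was counted without it. These are the 2 SARAWT PBS libraries with enough members for tests. Every direction drawn from them therefore rests on libraries whose label is in doubt. Human ZFYVE9 in SARAWT bleomycin 1 and 2 went against the label too, so the bleomycin side is not free of this doubt.

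Among the members, Xcr1 was detected in 621 cells, Clec9a in 471 and both in 427. The median member had 3 to 6 UMIs of the pair, depending on the library, and the highest had 15 to 26. Just inside the limit were 158 members with exactly 2 UMIs, and just outside were 341 cells with 1 UMI that met the other conditions. Irf8 lay at 1145 CPM in members with 3 or more UMIs, at 811 CPM in those with 2 and at 468 CPM in the cells with 1, and Itgae at 199, 142 and 66.5 CPM. In the same order, Mgl2, a lectin of type 2 dendritic cells, lay at 68.1, 318 and 761 CPM, so the cells at the limit were more mixed than those well above it. Another 14 cells were left out for H2-Ab1 and 28 for C1q. Xcr1 lies on chromosome 9 (123852315 to 123862029, minus strand) and Clec9a on chromosome 6 (129408862 to 129424763, plus strand) of mm10.

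The label was checked against markers. Of the markers given for these cells, Flt3 lay at 113 to 160.4 CPM (median 141) and Irf8 at 831 to 1356 CPM (median 1154) in the 7 libraries with at least 10 members. The other cell types were read from lists of markers summed per library. Defining B cell genes were near 0, with at most 2 of 4 markers detected in a library and a summed level of at most 1.82 CPM. Melanocyte and endothelial markers summed to at most 1.37 and 11.4 CPM. The 10 macrophage markers outside the rule summed to 1059 to 3060 CPM, and the 3 Langerhans cell markers (Cd207, Epcam, Mfge8) to 481 to 1526 CPM, most of it Cd207, which cDC1 of the dermis also express. The sums of the other markers closest to the members were 462 to 1895 CPM for cDC2 and 352 to 666 CPM for mature dendritic cells. They were 170.1 to 498 CPM for monocytes and 168 to 353 CPM for plasmacytoid dendritic cells. Macrophage and cDC2 markers were spread over the members: in the library labelled SARAWT PBS 3, 116 of 116 members had at least 1 UMI of the macrophage list and 115 of 116 of the cDC2 list. Some other RNA sat mostly in single cells or a few. The 4 neutrophil markers summed to 216 CPM in SARAWT bleomycin 3, where 5 of 110 members had at least 10 of their UMIs, to 124 CPM in SARATg bleomycin, where 1 cell gave 94.8% of them, and to at most 46.5 CPM in the other libraries. The 6 T cell markers summed to at most 74.4 CPM, in SARAWT bleomycin 2, where 2 of 64 members had at least 10 of their UMIs. The 4 muscle markers summed to 115 CPM in the library labelled SARAWT PBS 3 and 251 CPM in SARATg PBS, and to at most 29.8 CPM elsewhere. In the library labelled SARAWT PBS 1, 75 of 76 UMIs of the mast cell protease Cma1 and 142 of 145 of the keratin Krt14 came from 1 cell each, and in SARATg PBS 3394 of 6963 UMIs of the collagen Col1a1 came from 1 cell, with at least 1 UMI in 108 of 139 members. There the 6 fibroblast markers summed to 7085 CPM against 9.42 to 73.4 CPM in every other library.

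For comparison, the same quality limits and the same H2-Ab1 and C1q limits chose 3432 Cd209a Mgl2 cells, with at least 2 UMIs of these lectins of cDC2 and fewer than 2 UMIs of both Xcr1 with Clec9a and Ccr7 with Fscn1. They also chose 2325 Ccr7 Fscn1 cells, with at least 2 UMIs of these genes of mature dendritic cells and fewer than 2 of Xcr1 and Clec9a. Many Ccr7 Fscn1 cells also carried cDC2 markers. Cd209a was detected in 74.8% of them and Sirpa in 77.6%, beside 86.6% and 79.8% of Cd209a Mgl2 cells. UMIs were summed per library and group of cells, and the 7 libraries with at least 10 cells in each were compared in pairs with the edgeR quasi-likelihood test and Benjamini-Hochberg adjustment. The genes that chose the cells were left out, but every value comes from the cells that the rule sorted. The members were the deeper cells, with a median of 13410.5 to 22399.5 UMIs per library, beside 5117.5 to 15612.5 in Cd209a Mgl2 cells and 7855.5 to 20823 in Ccr7 Fscn1 cells.

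Genes of cDC1 identity were higher in the members over the 7 libraries compared. Of 10275 genes tested, 2396 (23.3%) were higher and 2616 (25.5%) lower in the members than in Cd209a Mgl2 cells. Of 23 tested genes on a list of cDC1 identity, 22 were higher and 1, Itgax, was lower, with a median log2 difference of 3.42 where the median over all genes was -0.02. Against Ccr7 Fscn1 cells 2396 of 10399 genes (23.0%) were higher and 2659 (25.6%) lower, and of the same 23 genes 21 were higher and Itgax was lower, with a median of 3.11. Of 10033 genes tested both times, 1892 were higher and 1882 lower in the members in both, while 22 were higher than the first and lower than the second group and 6 the reverse, both comparisons sharing the members' sums. The comparison groups also had cDC2 markers in common.

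Irf8, the factor without which cDC1 do not form, lay at 1090.4 ± 199 CPM (mean and SD, n = 7 libraries) in the members, at 60.3 ± 42.2 CPM in Cd209a Mgl2 cells and at 74.9 ± 33.8 CPM in Ccr7 Fscn1 cells. The lowest library of members, at 831 CPM, was far above the highest of the others, at 131 CPM (log2 difference 4.64 ± 0.36 SE, adjusted p = 1.31e-06). Itgae lay at 142 to 237 CPM (median 186) in members and 1.57 to 9.06 CPM in Cd209a Mgl2 cells (log2 difference 5.84 ± 0.25 SE, adjusted p = 4.00e-08). Cadm1, an adhesion molecule used to mark cDC1, lay at 91.2 to 229 CPM (median 146) beside 3.88 to 31.5 CPM, and Wdfy4, a protein needed for cross-presentation of cell-bound antigen, at 253 to 416 CPM (median 337) beside 28.6 to 67.5 CPM. For these 4 genes the members' libraries lay wholly above those of both other groups.

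Not all identity genes separated as far. Batf3, the partner of Irf8, lay at 23.9 to 88.9 CPM (median 46.7) in members and 13.2 to 50.2 CPM in Cd209a Mgl2 cells, and the ranges overlapped although the paired test was passed (log2 difference 1.10 ± 0.18 SE, adjusted p = 3.33e-04). Flt3 was less than 2-fold higher on average (log2 difference 0.99 ± 0.27 SE, adjusted p = 0.0107), and its level in Cd209a Mgl2 cells varied from 38.6 to 287 CPM while the members stayed between 113 and 160.4 CPM. Itgax, the integrin CD11c that is used to mark dendritic cells in general, lay at 23.9 to 37.7 CPM (median 29.2) in members and 40.8 to 97.3 CPM in Cd209a Mgl2 cells (log2 difference -0.97 ± 0.17 SE, adjusted p = 6.78e-04). The 10 tested genes of the cDC2 list were all lower in the members than in Cd209a Mgl2 cells, beside 25.5% of all genes. Sirpa, an inhibitory receptor of cDC2, lay at 1.70 to 19.0 CPM (median 9.85) in members and 169 to 275 CPM in Cd209a Mgl2 cells (log2 difference -4.38 ± 0.29 SE, adjusted p = 4.43e-07), and Irf4 at 1.13 to 8.15 CPM (median 5.02) and 66.2 to 152 CPM (log2 difference -4.32 ± 0.24 SE, adjusted p = 1.56e-07).

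**Figure D1:**
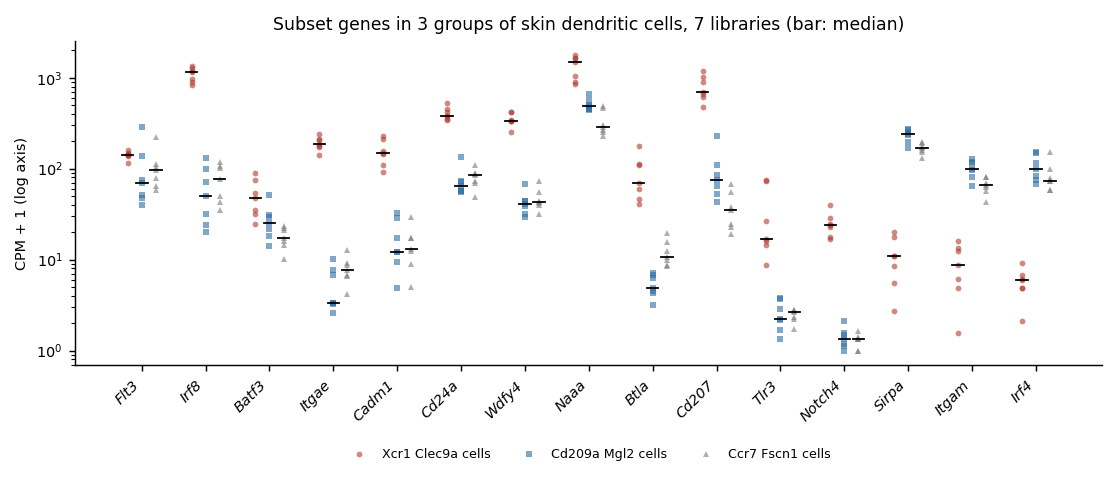
Levels of subset genes in CPM plus 1 on a log axis. Each point is 1 of 7 libraries, shapes mark Xcr1 Clec9a cells, Cd209a Mgl2 cells and Ccr7 Fscn1 cells, and black bars are medians. Irf8, Itgae, Cadm1, Wdfy4 and Notch4 of the members lie above both other groups, Sirpa, Itgam and Irf4 lie below them, and Flt3 overlaps.

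The share of cells with a UMI was compared at a common depth. Irf8 was detected in 94.0% of members, 15.0% of Cd209a Mgl2 cells and 26.7% of Ccr7 Fscn1 cells. After each cell was thinned to 2000 UMIs the shares were 75.6%, 5.17% and 10.2%, and in stromal cells and keratinocytes, which should lack Irf8 and were taken as thinned cells with no Ptprc and at least 5 UMIs of Col1a1, Col1a2, Krt14 and Krt5, 1.29%. The stromal cells and keratinocytes had a median of 11233.5 to 29930.5 UMIs per library and were shallower than the members in 6 of 8 libraries before thinning. Itgae was found in 76.7% of members before and 27.7% after thinning, beside 0.643% of thinned Cd209a Mgl2 cells and 0.367% of thinned stromal cells. Cd8a, which cDC1 of the spleen carry, was found in 7.97% of members before and 1.65% after thinning, beside 0.963% of thinned Ccr7 Fscn1 cells and 0.0612% of thinned stromal cells.

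Among the transcription factors of dendritic cells, 8 of 16 tested were higher and 5 lower in the members than in Cd209a Mgl2 cells, beside 23.3% and 25.5% of all genes. Besides Irf8 and Batf3, the higher ones were Id2, Zbtb46, Bcl6, Cbfa2t3, Runx3 and Zfp366, and the lower ones were Irf4, Klf4, Zeb2, Tcf4 and Etv6, several of which direct cDC2 or plasmacytoid dendritic cells. Of 13 growth factor receptors, Flt3, Kit and Ifnar1 were higher and Csf1r, Csf2ra, Csf2rb2, Il2rg and Il4ra were lower, beside 23.3% and 25.5% of all genes. Kit, the receptor for stem cell factor, lay at 79.8 to 147 CPM (median 96.8) in members and 1.51 to 15.5 CPM in Cd209a Mgl2 cells (log2 difference 4.35 ± 0.31 SE, adjusted p = 7.95e-07). Csf1r, the receptor that macrophages and monocytes depend on, lay at 2.83 to 21.4 CPM (median 6.42) and 85.1 to 175 CPM (log2 difference -3.67 ± 0.21 SE, adjusted p = 2.12e-07).

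Sensors of nucleic acids and their adaptors were mostly higher in the members: 10 of 14 tested genes were higher and 1, Tlr2, lower, against either comparison group, with a median log2 difference of 0.73 against Cd209a Mgl2 cells. Over all genes 23.3% were higher and 25.5% lower against Cd209a Mgl2 cells, and 23.0% and 25.6% against Ccr7 Fscn1 cells. Tlr3, which senses double-stranded RNA, lay at 7.76 to 73.4 CPM in members and 0.342 to 2.76 CPM in Cd209a Mgl2 cells (log2 difference 4.41 ± 0.25 SE, adjusted p = 1.89e-07). Its level in members differed between and within the gene lists. With the longer list it lay at 25.3 CPM in the library labelled SARAWT PBS 1 and 73.0 and 73.4 CPM in SARAWT bleomycin 1 and 2. In the libraries counted with the shorter list it lay at 7.76, 15.0, 16.1 and 13.6 CPM. The part of the gene list was not tested. Within both lists the members lay above Cd209a Mgl2 cells. Tlr11 and Tlr12, sensors of microbial profilin that work as a pair, were higher by 2.10 ± 0.27 and 3.43 ± 0.58 on the log2 scale (SE, adjusted p = 6.43e-05 and 4.74e-04), Tlr12 from a low level of 1.71 to 9.21 CPM (median 3.88). Unc93b1, which carries these receptors to the endosome, was higher as well (log2 difference 0.73 ± 0.17 SE, adjusted p = 0.00339).

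Subunits of the immunoproteasome and the peptide transporter of MHC class I were higher in the members, and the light chain of class I was lower. Of 20 genes on the class I and cross-presentation list, 12 were higher and 4 (B2m, Cybb, Sec22b and Erap1, which trims peptides for class I) lower than in Cd209a Mgl2 cells, beside 23.3% and 25.5% of all genes, with a median of 0.26. Psmb9, a subunit of the immunoproteasome, lay at 258 to 568 CPM (median 346) in members and 57.6 to 173 CPM in Cd209a Mgl2 cells (log2 difference 2.16 ± 0.08 SE, adjusted p = 1.71e-08). Psmb8, another such subunit, lay at 397 to 802 CPM (median 613) and 158 to 383 CPM, and Tap1 and Tap2, the subunits of the peptide transporter, were higher by 1.57 ± 0.14 and 1.86 ± 0.10 on the log2 scale. B2m, the light chain of class I, lay at 1406 to 1870.1 CPM (median 1555) in members and 1975 to 3988 CPM in Cd209a Mgl2 cells (log2 difference -0.63 ± 0.07 SE, adjusted p = 2.77e-05), and for the heavy chain H2-K1 the log2 difference was -0.06 ± 0.12 (adjusted p = 0.717). Cybb, the catalytic subunit of the phagosome oxidase, was lower (log2 difference -3.95 ± 0.32 SE, adjusted p = 2.04e-06), at 3.84 to 44.1 CPM (median 10.7) beside 97.1 to 372 CPM.

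Of 12 class II genes tested, 4 (H2-Aa, H2-Oa, H2-Ob and Ciita) were higher and 3 (H2-DMb2, Ctss and Lgmn) lower than in Cd209a Mgl2 cells, beside 23.3% and 25.5% of all genes. Ctss and Lgmn are proteases that cut proteins for class II, and Ctss lay at 385 to 676 CPM (median 557) in members and 960.2 to 1858 CPM in Cd209a Mgl2 cells. Other lysosomal proteases went the same way. Ctsb was lower by 1.57 ± 0.10 and Ctsd by 2.83 ± 0.24 on the log2 scale, and of 15 tested genes for uptake of dead cells and the lysosome 9 were lower and 4, Havcr2, Cd36, Scarb1 and Rab7, higher, beside 25.5% and 23.3% of all genes. Cd36, a scavenger receptor for dying cells, lay at 41.4 to 128 CPM (median 56.4) in members and 2.21 to 30.5 CPM in Cd209a Mgl2 cells (log2 difference 2.58 ± 0.32 SE, adjusted p = 4.13e-05), and Axl, a receptor for phosphatidylserine bridges, at 0 to 4.08 CPM (median 2.14) and 5.91 to 29.8 CPM.

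Il1b, an inflammatory cytokine, lay at 849.9 to 1628 CPM (median 1062) in members and 1998 to 3692 CPM in Cd209a Mgl2 cells (log2 difference -1.15 ± 0.12 SE, adjusted p = 1.38e-05). Of 19 tested cytokines and chemokines 7 were lower and 3, Cxcl9, Cxcl16 and Il12b, higher, where 25.5% and 23.3% of all genes were. Il12b, a subunit of the cytokine IL-12, was at 0 to 47.6 CPM (median 1.29) and rested on few cells, since all 62 UMIs in the library labelled SARAWT PBS 1 came from 2 cells. Of 12 co-stimulatory and checkpoint genes 6 were lower, among them Cd80 and Cd274 (PD-L1), and Icosl and Havcr2 (TIM-3) were higher, beside 25.5% lower and 23.3% higher of all genes. For Cd86 the log2 difference was -0.00 ± 0.14 (adjusted p = 0.985). Of the receptors that guide migration, Cxcr3 was higher (log2 difference 4.95 ± 0.48 SE, adjusted p = 7.15e-06) and Ccr2, Ccr6 and Ccr9 were among those that were lower.

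Genes of the cell cycle were somewhat higher than in Cd209a Mgl2 cells, with 12 of 23 tested higher and 1, Pcna, lower, beside 23.3% and 25.5% of all genes. Mcm3 and Mcm6, parts of the helicase that opens DNA for replication, were higher by 1.11 ± 0.15 and 1.03 ± 0.17 on the log2 scale. For Mki67 the test was not passed (log2 difference 0.00 ± 0.29 SE, adjusted p = 0.993). Against Ccr7 Fscn1 cells 6 genes were higher, near the 23.0% of all genes, and Mki67 and Pcna were lower, beside 25.6%. Of 13 targets of p53, Bbc3 was higher and 6 were lower, where 23.3% and 25.5% of all genes were, the lower ones including Cdkn1a, an inhibitor of the cell cycle, at 138 to 433 CPM (median 344) in members and 684 to 1004 CPM in Cd209a Mgl2 cells.

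The genes that separated the members farthest from Cd209a Mgl2 cells by fold, among those past the test with libraries that did not overlap and a mean of at least 10 CPM, were Gcsam, Snx22, Notch4, Cyp8b1, Itgae, Homer2, Dbn1, Rasgrp3, Gm11837 and Dgkk. Gcsam, a signaling adaptor known from germinal center B cells, lay at 19.2 to 49.8 CPM (median 29.9) in members, at 0 to 0.311 CPM in Cd209a Mgl2 cells and at 0 to 1.75 CPM in Ccr7 Fscn1 cells. Notch4, a receptor of the Notch family, lay at 15.9 to 39.3 CPM (median 23.1), 0 to 1.10 CPM and 0 to 0.661 CPM in the same order. Dbn1, an actin-binding protein, lay at 30.6 to 74.2 CPM (median 64.6), 0.134 to 6.63 CPM and 0.889 to 8.70 CPM. The farthest in the other direction were Alox15, Alox5, F7, Retnla, Marco, Cx3cr1, Rbp4, Pi16, Ngfr and Fcna. Alox15 and Alox5 make lipid mediators from arachidonic acid, and in the members Alox5 had at most 0.768 CPM, under the floor of 3 counts in every library, beside 5.11 to 25.0 CPM in Cd209a Mgl2 cells. Gcsam, Snx22, Notch4, Cyp8b1, Gm11837 and Dgkk were also among the 10 farthest above Ccr7 Fscn1 cells, with Cxcr3, Stfa2, Stfa2l1 and Nppc. Stfa2, a protease inhibitor, owed 113 of its 115 UMIs in SARAWT bleomycin 2 to 1 cell. Farthest below Ccr7 Fscn1 cells were Col11a1, Clu, Gm15056, AY761185, Alox5, Apol7c, Ednrb, Hamp, Calcb and Rbp4.

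These counts fell when fewer or shallower cells were used. When the groups were chosen on cells thinned to 2000 UMIs, 3 libraries kept at least 10 members, and 600 genes were higher and 778 lower than in Cd209a Mgl2 cells. Of 4825 of the earlier calls tested there, 4336 had the same sign. Without the libraries labelled SARAWT PBS 1 and 3 the counts were 2012 and 2164 against Cd209a Mgl2 cells and 1983 and 2236 against Ccr7 Fscn1 cells.

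Some members carried Ccr7 and other genes of mature dendritic cells, but hardly any Fscn1. At least 2 UMIs of Ccr7 and Fscn1 together were found in 7 of 67 members of the library labelled SARAWT PBS 1, 0 of 6 in SARAWT PBS 2 (an exact binomial upper limit of 45.9%), 25 of 116 in the library labelled SARAWT PBS 3, 6 of 83, 5 of 64 and 31 of 110 in SARAWT bleomycin 1 to 3, 7 of 139 in SARATg PBS and 16 of 80 in SARATg bleomycin. The shares were thus 21.6%, 28.2% and 20.0% in the libraries labelled SARAWT PBS 3, SARAWT bleomycin 3 and SARATg bleomycin and at most 10.4% in the other libraries. In the members this was in effect a limit on Ccr7, since Fscn1 lay at 0 to 1.71 CPM in them and at 73.1 to 352 CPM in Ccr7 Fscn1 cells. The high and low libraries crossed both treatment and genotype. All the high libraries were counted with the shorter gene list, as was SARATg PBS, which was low, and all libraries with the longer list were low. The part of the gene list was not tested.

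In the 3 libraries with at least 10 members of each kind, the members past this limit, called Ccr7-high here, were set beside the other members. In the order of the library labelled SARAWT PBS 3, SARAWT bleomycin 3 and SARATg bleomycin, their Ccr7 lay at 633, 907 and 1125 CPM and their Fscn1 at 0, 4.31 and 0 CPM. No test was run, since 1 gene pair divided the cells, but of 6239 genes with a mean of at least 10 CPM, 13.8% were higher and 20.0% lower in all 3 libraries. Lists are counted over their genes with that mean. Of 8 genes of the mature list other than Ccr7 and Fscn1, 7 were higher in all 3. Relb, the factor of the noncanonical NF-kappa B pathway that marks maturation, lay at 93.1, 109 and 117 CPM in the high members of the library labelled SARAWT PBS 3, SARAWT bleomycin 3 and SARATg bleomycin and at 44.2, 28.1 and 30.2 CPM in the others. Cd40, which receives help from T cells, lay at 58.7, 27.3 and 37.1 CPM beside 23.0, 11.0 and 12.3 CPM in the same order. Of 12 co-stimulatory and checkpoint genes 8 were higher in all 3, including both PD-1 ligands: Cd274 at 62.7, 111 and 68.0 CPM beside 10.0, 24.4 and 4.90 CPM, and Pdcd1lg2 at 26.3, 57.5 and 37.1 CPM beside 3.54, 8.55 and 0.817 CPM.

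The same cells were lower in genes of cDC1 identity, with 10 of 24 lower in all 3 libraries and 2, Id2 and Ly75, higher, beside 20.0% and 13.8% of all genes. This count includes Xcr1 or Clec9a or both, which chose the members. Ccr7 also lay at 111 CPM in members with 3 or more UMIs of that pair, at 218 CPM in those with 2 and at 387 CPM in cells with 1. The part of nearness to the limit was not tested. Cd207, the lectin langerin, lay at 156, 121 and 352 CPM in the Ccr7-high members and 1124, 931 and 683 CPM in the others. Batf3 lay at 16.2, 24.4 and 6.18 CPM beside 38.9, 56.2 and 28.6 CPM and Irf8 at 775, 578 and 359 CPM beside 926, 938 and 1117 CPM, so Irf8 stayed above its level in Cd209a Mgl2 cells (19.0 to 131 CPM). Of 17 interferon-stimulated genes 10 were higher in all 3 and none was lower, among them Irf7 at 494, 188 and 284 CPM beside 47.7, 164 and 161 CPM. Over all members of these libraries, in the same order, 1 cell gave 113 of 325, 36 of 399 and 49 of 289 UMIs of Irf7. It was detected in 29 of 116, 58 of 110 and 45 of 80 members. Cxcl9, a chemokine that draws Cxcr3+ T cells, lay at 257, 121 and 325 CPM beside 23.0, 84.9 and 1.63 CPM, but few cells carried it: over all members of the same libraries 1 cell gave 73 of 166, 92 of 223 and 79 of 107 UMIs. The share of members past the Ccr7 limit differs between libraries, and its part in the comparisons of treatment and genotype below was not tested.

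**Figure D2:**
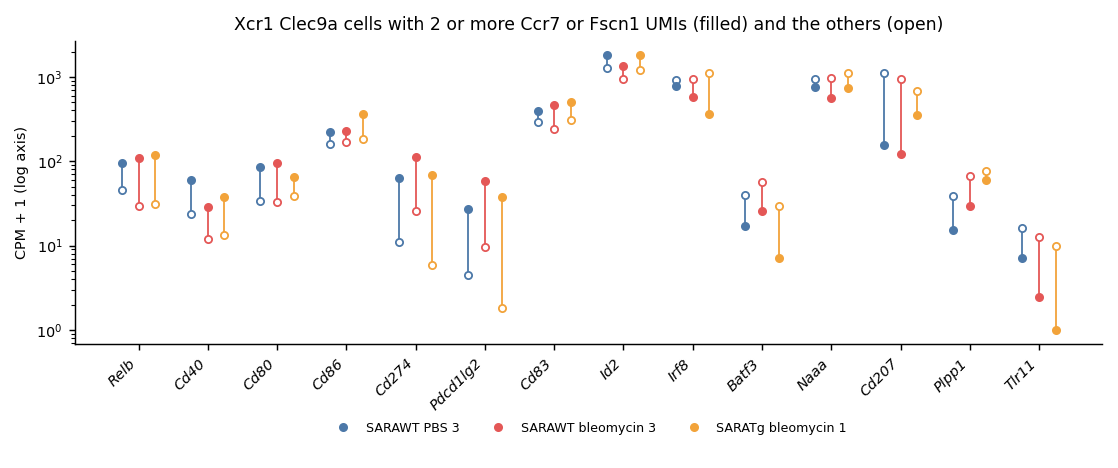
Levels in members with at least 2 UMIs of Ccr7 and Fscn1 together (filled) and in the other members (open) of 3 libraries, in CPM plus 1 on a log axis, with a line joining the pair of each library. Relb, Cd40, Cd80, Cd86, Cd274, Pdcd1lg2, Cd83 and Id2 are higher and Irf8, Batf3, Naaa, Cd207, Plpp1 and Tlr11 lower in the filled points of all 3 libraries.

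The abundance of the cells was compared between bleomycin and PBS. Of all quality cells, 1.64%, 0.768% and 2.50% were members in the libraries labelled SARAWT PBS 1, 2 and 3 and 3.85%, 2.95% and 1.68% in SARAWT bleomycin 1, 2 and 3. The groups overlapped, since SARAWT bleomycin 3 lay below the library labelled SARAWT PBS 3. The means were 1.64 ± 0.867% and 2.83 ± 1.09% (SD, n = 3 each), 1.19 percentage points apart (p = 0.2 in a two-sided exact permutation test over libraries, whose smallest p for 3 against 3 is 0.1). Of the H2-Ab1-high C1q-low cells, the shares were 6.89%, 3.06% and 8.27% with PBS and 14.4%, 10.5% and 7.45% with bleomycin, with means of 6.07 ± 2.70% and 10.8 ± 3.49% and a difference of 4.72 percentage points (p = 0.2 by the same exact test). In SARATg the share of quality cells was 3.05% (95% Clopper-Pearson interval 2.57 to 3.59%) with PBS and 1.55% (1.23 to 1.92%) with bleomycin. The differences within SARAWT were 0.258 and 0.939 percentage points when members were chosen on cells thinned to 2000 UMIs, and 0.678 and 2.91 without SARAWT bleomycin 1. The 2 single SARATg libraries lay the other way round from the SARAWT means, and the intervals cover counting error only. Without the libraries labelled SARAWT PBS 1 and 3, only the 6 members of SARAWT PBS 2 would stand for PBS.

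**Figure D3:**
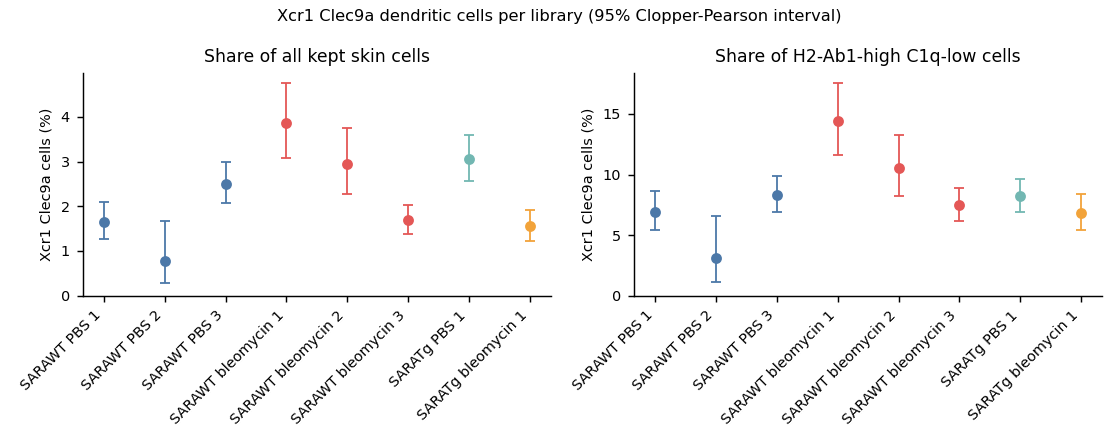
Share of Xcr1 Clec9a cells in each library, among all quality cells (left) and among H2-Ab1-high C1q-low cells (right), in percent, with 95% Clopper-Pearson intervals for counting error. Points are colored by group. SARAWT bleomycin 1 has the highest share on both sides (3.85% and 14.4%), and SARAWT bleomycin 3 lies among the PBS libraries.

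Proliferation was read from each cell thinned to 2000 UMIs, as the share of members with UMIs of at least 3 of 23 genes, a list that also holds genes active outside division such as H2afz and Tubb5. The shares were 50.7% and 44.0% in the libraries labelled SARAWT PBS 1 and 3 and 42.2%, 37.5% and 20.9% in SARAWT bleomycin 1, 2 and 3. Both PBS libraries lay above all bleomycin libraries at this setting, with means of 47.4 ± 4.79% (n = 2) and 33.5 ± 11.2% (n = 3) and a difference of -13.8 points of percent (p = 0.2 in a two-sided exact permutation test over libraries, smallest possible 0.1). In SARAWT PBS 2 it was 3 of 6 members, in SARATg PBS 44.6% and in SARATg bleomycin 38.8%. With at least 2 genes, and with cells thinned to 1000 UMIs, the groups overlapped, and the difference was -8.50 and -4.03. Unthinned, 92.7 to 100.0% of members passed. Cycling cannot be read from this list alone.

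Gene levels of the members with bleomycin and PBS were compared over the libraries labelled SARAWT PBS 1 and 3 and the 3 SARAWT bleomycin libraries. No gene of 8155 passed the edgeR quasi-likelihood test at an adjusted p of 0.05 (0%), where 582 genes were under 0.05 before adjustment, and DESeq2 called 5 higher and 4 lower. With gene list as a term 3 genes were called, all lower with bleomycin: Tpm3-rs7 (adjusted p = 3.52e-04), Zfyve9 (adjusted p = 0.00331) and Setd5 (adjusted p = 0.047). With all 4 groups in 1 fit, over the 7 libraries with at least 10 members, and gene list as a term, 3 were called higher, Btla, Il23a and Spon1, and 14 lower. The genes called lower in that fit included Col3a1 and Sparc of the fibroblast list, Cma1 and Mcpt4 of the mast cell list, Krt14, Zfyve9 and Tpm3-rs7. In the library labelled SARAWT PBS 1, 1 cell gave 75 of 76 UMIs of Cma1 and 1 cell gave 142 of 145 of Krt14. Levels did not overlap between the groups for 971 genes (11.9%) that were higher and 1136 (13.9%) that were lower with bleomycin. In the SARATg pair of libraries, which shares no library with it, 36.1% of all tested genes were higher with bleomycin, beside 62.2% of those 971 and 16.1% of those 1136. Both SARAWT PBS libraries are those whose label is in doubt, and no other SARAWT PBS library had 10 members, so the comparison could not be made without them. Human ZFYVE9 went against the label of SARAWT bleomycin 1 and 2 as well.

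By the smallest p among genes whose groups did not overlap, the genes named as higher with bleomycin were Spon1, Klrk1, Btla, Taldo1 and Bst2. Btla, an inhibitory receptor that is a marker of cDC1, lay at 45.3 and 40.2 CPM in the libraries labelled SARAWT PBS 1 and 3, at 175, 113 and 109.7 CPM in SARAWT bleomycin 1 to 3, and at 58.2 and 69.2 CPM in SARATg PBS and SARATg bleomycin. The log2 difference within SARAWT was 1.65 ± 0.28 (SE, adjusted p = 0.673, DESeq2 adjusted p = 7.80e-04). The 6 members of SARAWT PBS 2 gave 161 CPM from 17 UMIs, 10 of them in 1 cell, which is inside the bleomycin range. Btla was spread over many cells: it was detected in 31 of 67 and 54 of 116 members with PBS and in 75 of 83, 53 of 64 and 78 of 110 with bleomycin. After thinning to 2000 UMIs the shares were 10.4% and 10.3% with PBS and 33.7%, 23.4% and 16.4% with bleomycin, beside 0.306% in stromal cells, whose unthinned share was 2.27% over all libraries and 11.0% in the library labelled SARAWT PBS 1.

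Klrk1, the activating receptor NKG2D, lay at 43.0 and 36.5 CPM with PBS, 137, 94.4 and 102 CPM with bleomycin and 16.4 and 54.3 CPM in the SARATg pair (log2 difference 1.51 ± 0.25, adjusted p = 0.673, DESeq2 adjusted p = 0.00115). It was detected in 30 of 67 and 38 of 116 members with PBS, in 69 of 83, 51 of 64 and 85 of 110 with bleomycin. Thinned, the shares were 13.4% and 7.76% with PBS and 20.5%, 21.9% and 15.5% with bleomycin, beside 0.0919% in stromal cells (1.44% unthinned). Bst2, an interferon-induced protein that tethers viruses, lay at 122 and 131 CPM with PBS, 262, 309.8 and 223 CPM with bleomycin and 117 and 196 CPM in the SARATg pair. Taldo1, an enzyme of the pentose phosphate pathway, lay at 229 and 305 CPM with PBS, 653, 585 and 504 CPM with bleomycin and 295 and 543 CPM in the SARATg pair. For these 4 genes the SARATg bleomycin library was above the SARATg PBS library, and for Taldo1 it lay inside the SARAWT bleomycin range. Spon1, a secreted matrix protein, was at 1.54 and 1.37 CPM (2 and 3 UMIs) with PBS and 17.6, 16.3 and 18.4 CPM (31, 24 and 43 UMIs) with bleomycin. In Cd209a Mgl2 cells Spon1 had the same order, at 1.40 and 0.936 CPM with PBS and 30.4, 8.45 and 14.0 CPM with bleomycin.

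Genes of the immunoproteasome were higher in value with bleomycin. Of 20 class I and cross-presentation genes, 18 had a positive log2 difference with a median of 0.29, beside 0.00 over all genes, and the groups did not overlap for 7 that were higher and 1, Calr, that was lower, beside 11.9% and 13.9% of all genes. Psmb8 lay at 397 and 491 CPM with PBS and 802, 745 and 613 CPM with bleomycin, and at 491 and 789 CPM in the SARATg pair (log2 difference 0.71 ± 0.19, adjusted p = 0.673). Psme1, a subunit of the activator that caps the proteasome, lay at 537 and 546 CPM with PBS, 1043, 825 and 897 CPM with bleomycin and 622 and 872 CPM in the SARATg pair (log2 difference 0.79 ± 0.17, adjusted p = 0.673, DESeq2 adjusted p = 0.0373). Psmb9 and Psme2 had the same order, while Tap1, at 130.5 and 95.4 CPM with PBS and 189, 149 and 130.3 CPM with bleomycin, overlapped. The 6 members of SARAWT PBS 2 lay at the low end for Psmb8, Psmb9, Psme1 and Psme2, at 303, 218, 416 and 170.3 CPM. These genes were also higher in value with bleomycin in Cd209a Mgl2 cells, where Psmb8 lay at 208 and 158 CPM with PBS and 383, 318 and 243 CPM with bleomycin. The difference between the 2 kinds of cell was -0.05 ± 0.24 on the log2 scale for Psmb8 (adjusted p = 0.998). The summed markers of 2 other cell types had the same order among the members. The monocyte list summed to 241 and 305 CPM in the libraries labelled SARAWT PBS 1 and 3 and to 474, 498 and 474 CPM in SARAWT bleomycin 1 to 3. Of its 4 tested genes 2 had a positive log2 difference, with a median of 0.02. The groups did not overlap for 1 of the 4, Plac8, beside 11.9% of all genes. Plac8 had 24 and 288 UMIs in these PBS libraries and 601, 477 and 747 in SARAWT bleomycin 1 to 3. The list of plasmacytoid dendritic cells summed to 186 and 182 CPM with PBS and to 313, 353 and 325 CPM with bleomycin, most of it Bst2 in each of these libraries. The part of such cells in the values with bleomycin was not tested.

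**Figure D4:**
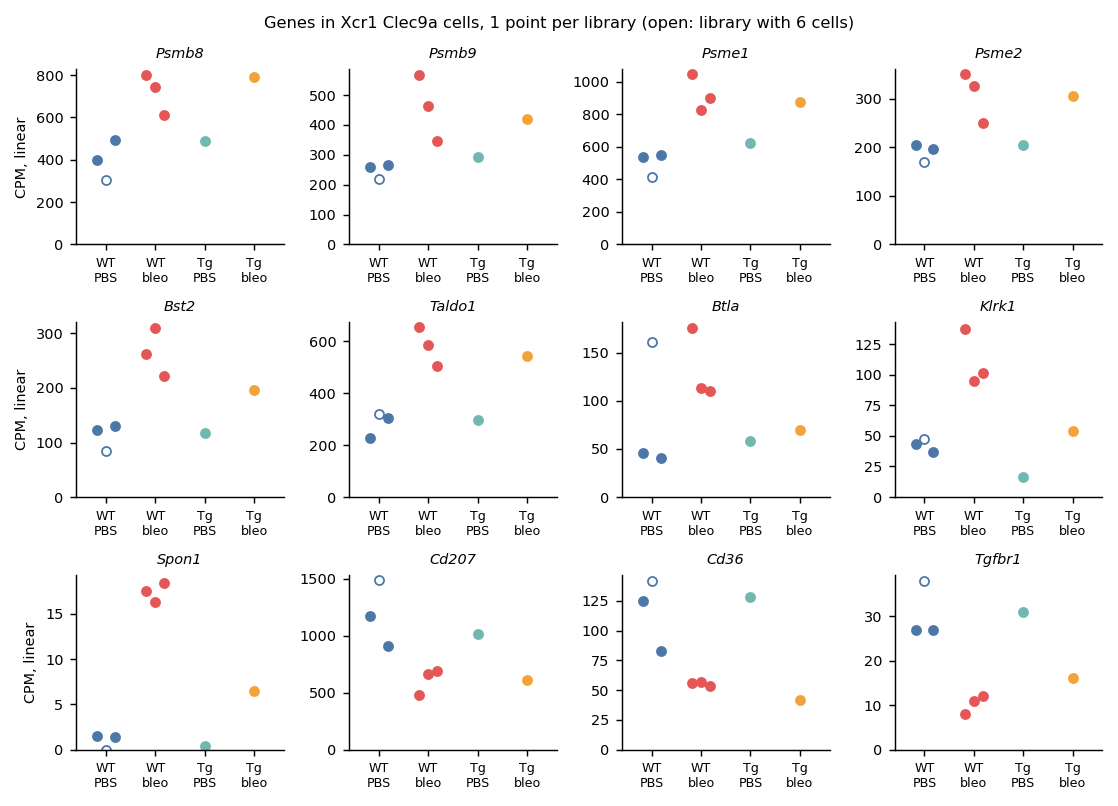
Levels of 12 genes in Xcr1 Clec9a cells in CPM on linear axes that start at 0, with 1 point per library in the groups SARAWT PBS (WT PBS), SARAWT bleomycin (WT bleo), SARATg PBS (Tg PBS) and SARATg bleomycin (Tg bleo). Open points are SARAWT PBS 2, with 6 cells. The immunoproteasome genes, Bst2, Taldo1 and Klrk1 are higher and Cd207, Cd36 and Tgfbr1 lower in value in both bleomycin groups than in the filled PBS points, and no gene passed the test over all genes.

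Genes of cDC1 identity went both ways. Of 23 tested, the groups did not overlap for 5 that were higher with bleomycin (Itgae, Ifi205, Snx22, Gcsam and Btla) and 5 that were lower (Cadm1, Id2, Rab7b, Ly75 and Cd207), beside 11.9% and 13.9% of all genes, and the median log2 difference was 0.04. Cd207 lay at 1171 and 906 CPM with PBS, 476, 667 and 689 CPM with bleomycin and 1019 and 614 CPM in the SARATg pair (log2 difference -0.75 ± 0.21, adjusted p = 0.673). Epcam and Mfge8, the other Langerhans cell markers, also lay wholly lower, Epcam at 36.8 and 34.7 CPM with PBS and 3.96, 4.08 and 27.0 CPM with bleomycin. Their part, as other cells among the members, was not tested. Cd36 lay at 125 and 83.1 CPM with PBS, 56.1, 56.4 and 53.6 CPM with bleomycin and 128 and 41.4 CPM in the SARATg pair.

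SARA was first described as presenting Smad proteins to the TGF-beta receptor, a role that later work disputes. Of 13 genes of the TGF-beta pathway, the groups did not overlap for 2 that were higher with bleomycin and 6 that were lower (11.9% and 13.9% of all genes), and the median log2 difference was -0.23. Tgfbr1, the type I receptor, lay at 26.9 and 26.9 CPM with PBS, 7.93, 10.9 and 12.0 CPM with bleomycin and 31.0 and 16.2 CPM in the SARATg pair (log2 difference -1.36 ± 0.29, adjusted p = 0.673). Its level in Cd209a Mgl2 cells was 10.7 and 20.5 CPM with PBS and 11.6, 13.9 and 31.1 CPM with bleomycin, which overlapped. Tgfb1, the ligand, lay at 173 and 147 CPM with PBS and 112, 137 and 144 CPM with bleomycin in the members. Zfyve9 itself was among the genes named as lower, with Tpm3-rs7, Setd5, Col3a1 and Sparc, and the first 3 are taken up with the genotypes below. Col3a1 and Sparc, which fibroblasts make, are themselves 2 of the 6 fibroblast markers, whose sum was 69.5 and 73.4 CPM in the libraries labelled SARAWT PBS 1 and 3 and 10.8 to 27.6 CPM with bleomycin. In the library labelled SARAWT PBS 3, 1 cell gave 56.5% of that sum and 21 of 35 UMIs of Sparc.

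Of 22 interferon-stimulated genes 16 had a positive log2 difference with bleomycin, with a median of 0.73, and the groups did not overlap for 7 that were higher and 3 that were lower, the latter near the 13.9% of all genes and the former beside 11.9%. Irf7, a master factor of this response, lay at 144 and 148 CPM with PBS, 198, 255 and 171 CPM with bleomycin and 56.0 and 187 CPM in the SARATg pair. The 3 lower genes were Rsad2, Ifit1 and Ifit3, antiviral effectors whose UMIs sat in few cells. Rsad2 lay at 33.8 and 39.2 CPM with PBS and 15.3, 14.3 and 4.71 CPM with bleomycin, and at 7.49 and 1.94 CPM in the SARATg pair.

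Of 9643 genes, 1 (0.0104%), Rsad2, passed the test for a different response to bleomycin between the members and Cd209a Mgl2 cells, a comparison that also rests on the libraries labelled SARAWT PBS 1 and 3. In Cd209a Mgl2 cells of the same libraries it lay at 1.87 and 3.61 CPM with PBS and 38.1, 19.9 and 16.5 CPM with bleomycin, the reverse order. The difference of the 2 responses was -4.87 ± 0.42 on the log2 scale (edgeR quasi-likelihood test of the interaction, adjusted p = 0.0147), DESeq2 called 1 gene larger and 4 smaller, and 566 genes had an unadjusted p under 0.05. The call was lost without the library labelled SARAWT PBS 1, without the one labelled SARAWT PBS 3 and without SARAWT bleomycin 1, and at most 2 genes were called with any 1 library left out. The PBS level of the members sat in single cells: 37 of 44 UMIs in the library labelled SARAWT PBS 1 came from 1 of 67 cells, and 53 of 86 in the library labelled SARAWT PBS 3 from 1 of 116. Rsad2 was detected in 5 and 6 members with PBS and in 7, 11 and 3 with bleomycin. SARAWT PBS 2 had 0 UMIs of Rsad2 in its members, which allows up to 28.3 CPM, and 18.7 CPM in its Cd209a Mgl2 cells, inside the bleomycin range.

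Other genes of the family had a difference of the same sign without passing the edgeR test, although Ifit3 was among the DESeq2 calls (DESeq2 adjusted p = 1.32e-05) and passed edgeR without SARAWT bleomycin 3 (adjusted p = 0.0327). The difference of the responses was -6.07 ± 0.77 for Ifit3 (adjusted p = 0.12), -4.63 ± 0.93 for Ifit1 (adjusted p = 0.444) and -2.71 ± 0.66 for Irf7 (adjusted p = 0.628). Irf7 lay at 3.27 and 21.0 CPM with PBS and 149.6, 85.5 and 67.9 CPM with bleomycin in Cd209a Mgl2 cells, and with PBS these lay far below the 144 and 148 CPM of the members. For Ifit3, 17 of 21 UMIs and 37 of 66 UMIs in the members with PBS came from 1 cell of each library.

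**Figure D5:**
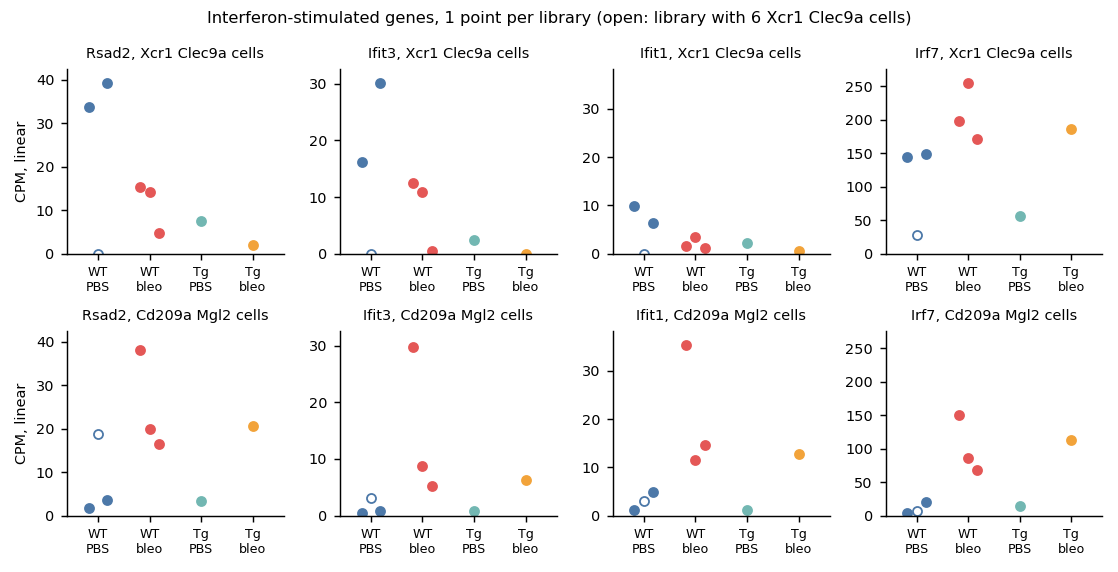
Levels of Rsad2, Ifit3, Ifit1 and Irf7 in Xcr1 Clec9a cells (top) and Cd209a Mgl2 cells (bottom), in CPM on linear axes shared within each gene, with 1 point per library. Open points are SARAWT PBS 2. In the bottom row the SARAWT bleomycin points lie above the filled SARAWT PBS points for all 4 genes, and in the top row Rsad2, Ifit3 and Ifit1 lie below them.

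SARATg was compared with SARAWT with treatment and gene list as terms, where the single SARATg libraries are assumed to vary like the others. Both SARATg libraries were counted with the shorter gene list. The genotype term therefore in effect set them against the library labelled SARAWT PBS 3 and SARAWT bleomycin 3. The log2 differences by genotype below rest on these SARAWT libraries, while the values beside them cover all SARAWT libraries in the test. No gene of 8470 passed the edgeR quasi-likelihood test (0%), 492 genes were under 0.05 before adjustment, and DESeq2 called 2 higher and 22 lower. The groups did not overlap for 390 genes (4.60%) that were higher and 240 (2.83%) that were lower in SARATg. Zfyve9 was not among them, at 245 and 145 CPM in SARATg and 12.2, 387, 1.13, 0.677 and 1.28 CPM in the SARAWT libraries. Without the libraries labelled SARAWT PBS 1 and 3 the test called 2 genes, Zfyve9 and Tpm3-rs7, both higher in SARATg (log2 difference 6.78 and 3.28, adjusted p = 0.00195 and 0.0441). In that fit the treatment term took up SARATg PBS and the gene list term took up SARAWT bleomycin 1 and 2, so both calls rest on the single SARATg bleomycin library against SARAWT bleomycin 3, the only SARAWT library left with the same gene list.

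By the same rule of smallest p and no overlap, the genes named as higher in SARATg were Serpinf1, mt-Atp6, Scd2, mt-Co1 and mt-Co2. Serpinf1, a secreted factor that restrains vessel growth, lay at 97.8 and 66.6 CPM in SARATg and 52.2, 33.8, 47.0, 53.7 and 28.7 CPM in SARAWT (log2 difference 1.33 ± 0.19, adjusted p = 0.0936), with 49 of 274 UMIs in SARATg PBS from 1 cell. mt-Atp6, a mitochondrial gene of ATP synthase, lay at 4574 and 4301 CPM beside 2763, 2804, 2435, 3053 and 2637 CPM (log2 difference 0.66 ± 0.14, adjusted p = 0.3). In Cd209a Mgl2 cells mt-Atp6 had the same order, at 4833 and 5849 CPM in SARATg and 3323, 3576, 3176, 3837 and 3862 CPM in SARAWT. The members' median share of mitochondrial UMIs was 2.58% and 2.51% in SARATg and 1.40% to 1.73% in these SARAWT libraries, and its part in the levels of the mt- genes was not tested. The 4 tested fibroblast markers all had a positive log2 difference in SARATg, with a median of 5.43. The 6 fibroblast markers summed to 7085 CPM in SARATg PBS and 27.1 CPM in SARATg bleomycin. The part of fibroblast transcripts in the genes named as higher was not tested.

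The genes named as lower in SARATg included Wfdc17, Ifitm3, Gcsh and Socs3. Ifitm3, an interferon-induced membrane protein, lay at 109 and 192 CPM in SARATg PBS and bleomycin and at 213 and 296 CPM in SARAWT with PBS and 529, 399 and 454 CPM with bleomycin (log2 difference -1.40 ± 0.20, adjusted p = 0.0936, DESeq2 adjusted p = 1.43e-05). Wfdc17, a small secreted protein of myeloid cells, lay at 78.2 and 53.6 CPM in SARATg and 119, 607, 202, 162 and 259 CPM in SARAWT (log2 difference -2.73 ± 0.39, adjusted p = 0.0936). It is a gene of the cDC2 comparison cells, at 842 to 1713 CPM there, and 10 of 11 tested genes of the cDC2 list had a negative log2 difference in SARATg with a median of -1.18, beside -0.00 over all genes. The 8 tested macrophage markers and the 4 tested monocyte markers all had a negative difference as well, with medians of -1.16 and -1.30. The part of transcripts of these other myeloid cells in these values was not tested.

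The response to bleomycin differed between SARATg and SARAWT for 5 of 9231 genes (0.0542%), 2 (0.0217%) with a larger and 3 (0.0325%) with a smaller log2 response in SARATg. All 5 calls were lost in the fit without gene list as a term. The 3 smaller ones were the fibroblast genes Col1a1, Col1a2 and Sparc, with differences of -6.46 ± 0.60, -7.45 ± 0.77 and -6.27 ± 0.61 (adjusted p = 0.00619, 0.00791 and 0.0067). Col1a1 lay at 2485 CPM in SARATg PBS and 7.76 CPM in SARATg bleomycin, and 1 cell gave 3394 of the 6963 UMIs behind the SARATg PBS value. With members that also passed the Cd209a and Mgl2 or the Ccr7 and Fscn1 limit left out, 1 gene was called larger and 0 smaller.

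The 2 larger ones were Tpm3-rs7, a copy of a tropomyosin gene whose reads can be shared with Tpm3, and Zfyve9. Tpm3-rs7 lay at 141, 18.9 and 167 CPM in the libraries labelled SARAWT PBS 1, 2 and 3, at 7.36, 7.47 and 15.9 CPM in SARAWT bleomycin, at 10.7 CPM in SARATg PBS and at 153 CPM in SARATg bleomycin (difference of the responses 7.79 ± 0.46, adjusted p = 2.11e-04). The libraries fell into a high set of 3, the libraries labelled SARAWT PBS 1 and 3 and SARATg bleomycin, and a low set of 5. The same libraries were high in Cd209a Mgl2 cells, at 102, 131 and 137 CPM beside 4.68, 7.18, 6.76, 12.2 and 8.76 CPM. The UMIs of Tpm3-rs7 were spread over many cells, with UMIs in 58 of 67, 101 of 116 and 65 of 80 members of the high libraries. Setd5, a chromatin gene, lay at 118 and 241 CPM in the libraries labelled SARAWT PBS 1 and 3, at 46.4, 42.1 and 51.8 CPM in SARAWT bleomycin and at 164 and 165 CPM in SARATg, so it did not follow Tpm3-rs7. With 1 library in each SARATg group, the response of SARATg and any other difference between its 2 libraries cannot be told apart.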

How the data were processed

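RNA of GFP+ skin cells was counted as UMIs, 1 for each molecule captured, by gene and cell. The deposited counts are whole numbers, not normalized, as the authors' filtered matrices hold them. The submitters' processing notes name Cell Ranger 3.0.2, Seurat 2.3.4 and mm10, and the file headers name Cell Ranger 3.1.0 or 4.0.0. Gene lists of 31053 and 32286 entries were joined on 30406 shared identifiers, and no aligner setting is given in the sources used here. Doublets were kept in the main values and scored with scanpy 1.11.5 for an alternative.

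UMIs were summed per library and group of cells, with at least 10 cells. Counts were tested with edgeR 4.0.16 in R 4.3.3 (filterByExpr, TMM, quasi-likelihood, Benjamini-Hochberg at 0.05), checked on simulated data, with DESeq2 1.42.0 as an alternative. In the simulated data the test of the difference of responses by genotype, with single SARATg libraries, recovered none of the changed genes. Shares were compared by exact permutation (Python 3.11.15, scipy 1.17.1). CPM are per 1000000 UMIs of the summed cells. The SE beside an edgeR log2 difference is the size of that difference divided by the square root of the quasi-likelihood F statistic. Members and gene lists were chosen with earlier results of these data known. Genes were named from those lists, with Zfyve9, or as up to 10 per direction with the largest fold past the threshold, no overlap and a mean of at least 10 CPM. With none past it, 5 per direction with the smallest p were named. Labels do not tie libraries to separate mice, so p-values measure the spread between libraries. Intervals and floors cover counting error only. Some genes that these rules would name are not reported here.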

Additional observations from a re-analysis of the deposited data

Results flagged for a closer look

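In 5 genes the response of the Xcr1 Clec9a cells to bleomycin differed between SARATg and SARAWT by the edgeR quasi-likelihood test of the interaction. The difference on the log2 scale was 7.79 for Tpm3-rs7, 6.43 for Zfyve9, -6.46 for Col1a1, -7.45 for Col1a2 and -6.27 for Sparc. The SARATg response rests on 1 library with each treatment. The SARAWT response rests on the libraries labelled SARAWT PBS 1 and 3, whose label is in doubt, and on the SARAWT bleomycin libraries. In SARAWT bleomycin 1 and 2 human ZFYVE9, at 85.1 and 96.1 CPM in the members, also went against the label. All 5 calls were lost without gene list as a term, and 4 of the 5 with members left out that also passed the Cd209a and Mgl2 or the Ccr7 and Fscn1 limit. In SARATg PBS, 1 of 139 cells gave 3394 of 6963 Col1a1 UMIs.

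The response of Rsad2 to bleomycin differed between Xcr1 Clec9a cells and Cd209a Mgl2 cells of SARAWT, by -4.87 on the log2 scale. In the members with PBS, 1 cell gave 37 of 44 UMIs in the library labelled SARAWT PBS 1 and 53 of 86 in the one labelled SARAWT PBS 3.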

How the results depend on the processing

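No difference in shares changed direction. Of genes called between kinds of cell and tested again, 4336 of 4825 kept their sign against Cd209a Mgl2 cells and 3305 of 3546 against Ccr7 Fscn1 cells when chosen on thinned cells, and 4758 of 4782 against Cd209a Mgl2 cells in SARAWT PBS libraries only. Among the genes named for a test, 4 with differences near 0 changed sign, at an adjusted p of at least 0.0622 in every fit. Between the members and Cd209a Mgl2 cells, H2-K1 differed by 0.000732 on thinned cells, by 0.0799 in SARAWT PBS libraries only and by -0.164 to 0.0298 with 1 library left out (log2). Cd86 differed by 0.195 in SARAWT PBS libraries only, by 0.0261 without shared barcodes, added after seeing the data, and by -0.11 to 0.0964 with 1 library left out. Mki67 differed by -0.0701 with DESeq2, -0.00882 with RLE factors, -0.0448 with no filter, -0.0289 without doublets, -1.08 on thinned cells, and, added after seeing the data, -0.149 without the libraries labelled SARAWT PBS 1 and 3 and -0.133 without shared barcodes, and by -0.187 to 0.181 with 1 library left out. Among all values of single named genes under the alternatives, 1647 kept their direction and side of the threshold, 84 passed it and 29 lost it. Psmb8 in the difference by kind of cell ran from -0.367 to 0.271 with 1 library left out. The difference in share kept its sign with 1 library left out, at 0.678 to 1.76 percentage points of all quality cells and 2.91 to 6.39 of H2-Ab1-high C1q-low cells, and the proliferation share at -18.2 to -7.52, or -0.612 without thinning. Chosen on thinned cells, the first 2 differences were 0.258 and 0.939. With DESeq2 the calls numbered 9 for bleomycin in SARAWT, 24 for SARATg against SARAWT, 10 for the difference of responses by genotype and 5 by kind of cell. Without a filter on low counts they numbered 213, 245, 95 and 174. For bleomycin in SARAWT, 1 gene was called with C1q at 0, 3 with gene list as a term and 17 with all 4 groups and gene list in 1 fit. For the genotype, after seeing the data, 3 were called with at least 5 cells per library, 2 without the libraries labelled SARAWT PBS 1 and 3, 2 without shared barcodes and 3 without mixed cells. For the difference by genotype, 0 were called without the gene list, and, after seeing the data, 3 without shared barcodes and 1 without mixed cells. Chosen on thinned cells, 1378 genes differed from Cd209a Mgl2 cells and 1179 from Ccr7 Fscn1 cells, and 1731 differed from Cd209a Mgl2 cells in SARAWT PBS libraries only. With 1 library left out, calls ranged from 0 to 4, 0 to 19, 4 to 69 and 0 to 2 in the first 4 comparisons, with 4 in the first without the library labelled SARAWT PBS 3, and 19 and 69 in the next ones without SARAWT bleomycin 1, and from 4325 to 4760 and 4515 to 4801 between kinds of cell. Bleomycin in SARAWT and the difference by kind of cell could not be fitted on thinned cells, nor the difference by genotype without either SARATg library. The cause of these changes was not tested.

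Same-numbered SARAWT PBS and bleomycin libraries correlated at 0.132, 0.0613 and 0.364 in their deviations from group means, and other pairs at -0.239 to 0.118. Among the other pairs, PBS 1 with bleomycin 2 and PBS 2 with bleomycin 1, which share the longer gene list, lay at 0.118 and 0.0735. Pairs across the gene lists lay at -0.239 to -0.11. SARAWT replicates 3 shared the shorter gene list, so for them pairing and gene list cannot be told apart. Whether the replicate numbers pair the libraries was not tested. With a replicate block, 78 genes were called for bleomycin in SARAWT (26 higher, 52 lower), 21 with the block and at least 5 cells per library, added after seeing the data, 96 for the genotype and 21 for the difference by genotype. The blocked shares differed by 1.19, 4.72 and -15.8 percentage points. Depth limits the 6 members of SARAWT PBS 2, where 0 UMIs allow up to 28.3 CPM, beside at most 2.29 CPM elsewhere.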

Other observations

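The same gate was applied to 9 kidney libraries of the series, which enter no comparison here. It chose 158 of 7397 quality cells in SARATg aristolochic acid, 101 of 5944 and 25 of 5969 in SARATg vehicle, 131 of 7317, 7 of 4003 and 28 of 5292 in SARAWT aristolochic acid, and 30 of 8822, 73 of 10057 and 138 of 6943 in SARAWT vehicle. The shares ran from 0.175% to 2.14% over all 9 libraries and from 0.340% to 1.99% within SARAWT vehicle.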
